A study of Arabidopsis thaliana with 30 samples.

Results

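A set of 74 probe sets of the Arabidopsis ATH1 array, of 22746 in all, had a higher signal in both kinds of root tissue taken at 8 days post germination (dpg) than in any other group of the series. They were chosen on group means of log2(signal + 32). The mean of the tip at 8 dpg and that of the stump at 8 dpg each had to lie at least 0.8 above the mean of each of the other 6 groups. The tip at 4 dpg had to lie less than 1 above the stump at 0 h, and the mean signal of the tip at 8 dpg had to reach 150. The first condition alone was met by 168 probe sets, of which 82 were left out because the tip at 4 dpg stood too far above the stump and 12 because their signal was too low. In the opposite direction, 108 probe sets lay at least 0.8 below every other group in both tissues at 8 dpg.

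The Arabidopsis root grows from a niche of stem cells near its end, which is covered by the root cap and gives rise to a zone of dividing cells and, further up, of elongating cells. Auxin, which peaks near the niche, patterns this region, and a root whose outermost end is cut off can rebuild it. The stump left by such a cut holds cells of the dividing zone. Tissue taken from older seedlings differs in the age of the plant as well as in anything that was done alongside it.

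All seedlings were of the accession Col-0, with no transgene or mutation named, and grew horizontally on plates at 22 °C in long days. The tip is the distal 130 µm of the root and the stump is the 70 µm next to the cut (lengths from the protocol; the titles print mm). The 30 arrays fell into 8 groups: the tip at 4 dpg (4 arrays), the stump collected 0, 5, 13 and 22 h after the tip was removed at 4 dpg (4, 4, 4 and 5 arrays), a section from 270 to 340 along the root that was harvested at once (3 arrays), the tip at 8 dpg (3 arrays) and the stump at 8 dpg (3 arrays). The labels give no age for the section, and its unit is not settled. They give the stump at 8 dpg as a recut at 0 h in 1 field, and with a time of 192 h since the first cut in another, and the growth protocol shared by all samples speaks of 4 days. Each array measured a pool of at least 25 pieces of tissue, from which 50 ng of total RNA was amplified in 2 cycles. The labels do not say whether the pools of a group were sown separately, so a p-value here covers only the spread seen among these arrays, which may be technical. No batch or scan date was given, so age cannot be told apart from anything else that the 6 arrays of 8 dpg tissue share. In pooled tissue, fewer cells of a type and less RNA per cell cannot be told apart either.

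The values are the MAS5 signals that the authors deposited, on a linear scale, with 2% trimmed means of 246.46 to 248.59 on all arrays. The median signal ran from 66.1 to 141.8 and stood above 120 on 4 arrays: arrays 1 and 2 of the stump at 0 h, array 1 of the tip at 4 dpg and array 1 of the stump at 22 h. Arrays of a group correlated at 0.974 to 0.976 for the tip at 8 dpg, 0.969 to 0.976 for the stump at 8 dpg and 0.96 to 0.967 for the section, but at 0.793 to 0.929 for the stump at 0 h, 0.821 to 0.934 at 22 h and 0.87 to 0.945 for the tip at 4 dpg. The label of the stump at 8 dpg was set against 9 genes of the stem cell niche, 2 of which were named on the array. BBM, which encodes an AP2-type transcription factor of the niche, had a mean signal of 163 in the tip at 4 dpg, 19.3 in the stump at 0 h, 223.8 in the tip at 8 dpg and 279 in the stump at 8 dpg. BBM was higher in the stump at 8 dpg than in that at 0 h (log2 difference 2.61 ± 0.39, SE; limma, adjusted p = 2.02e-05). JKD, a zinc finger factor of the same list, differed the other way, without passing the test (-0.92 ± 0.47; adjusted p = 0.235): its mean signal was 47.2 in the stump at 8 dpg, 131.7 at 0 h, 92.5 in the tip at 4 dpg and 87 in the tip at 8 dpg. The niche markers therefore do not settle what the stump at 8 dpg holds. Summed over both, and so mixing these directions, the signal per array ran from 256.6 to 392.1 in the stump at 8 dpg, from 249.4 to 370.9 in the tip at 8 dpg and from 70.4 to 300.4 in the stump at 0 h. The part of these markers in the levels of the 74 probe sets was not tested. Over all probe sets, limma calls at an adjusted p under 0.05 and a log2 difference of at least 1 were also counted. There were 101 between the tips at 8 and 4 dpg and 1547 between the stumps at 8 dpg and 0 h. Between the tip and the stump at 8 dpg there were 0, which does not show them to be alike. What the stump at 8 dpg holds was not tested further.

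Among the 74 probe sets, 32 were listed with 1 gene, 1 with several genes and 41 with none, so that most of them are unnamed here. The lower of the 2 group means at 8 dpg exceeded the highest other group mean by 0.80 to 2.07 (log2), with a median of 0.98; this margin is what the choice rests on and is given as a description. Just inside the limit of 0.8 lay the unnamed probe sets 251665_at (0.803) and 266568_at (0.808), and just outside it AT1G08610 (0.794) and AT2G16760 (0.796). At the limit on the tip against the stump, 262794_at was inside with 0.935 and 261074_at outside with 1.00. At the limit on the signal, AT3G32030 was inside with 154 and 260053_at outside with 147. The difference of the tip at 8 dpg from the tip at 4 dpg had a median of 1.18 over the members (0.82 to 3.61), against -0.10 over all probe sets. That of the stump at 8 dpg from the stump at 0 h had a median of 1.81 (0.98 to 4.73), against -0.17. The stump difference was the greater in 65 of 74 members, a count whose share over all probe sets was not taken. The tip at 4 dpg lay above the stump at 0 h by a median of 0.46 in the members, against -0.04 over all probe sets. That lower starting level of the stump enters the count, so nothing is read from it.

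High at 8 dpg did not mean absent elsewhere. Another group reached a mean signal of at least 150 in 38 members and stayed under it in 36. The highest of the other groups was the tip at 4 dpg in 36 members, the stump at 22 h in 22, the stump at 13 h in 6, the section in 5, the stump at 0 h in 3 and the stump at 5 h in 2. In 51 of 74 members the lowest of the 6 arrays at 8 dpg lay above the highest of the other 24, against 1.05% of all probe sets; the choice of members used these arrays, so nothing is read from that count. In the other 23 members the arrays overlapped, and in 15 of those the highest other array was 1 of the 4 with a median signal above 120. In the tip at 8 dpg, 47 members had a mean signal under 500 and 17 one of at least 1000.

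**Figure D1:**
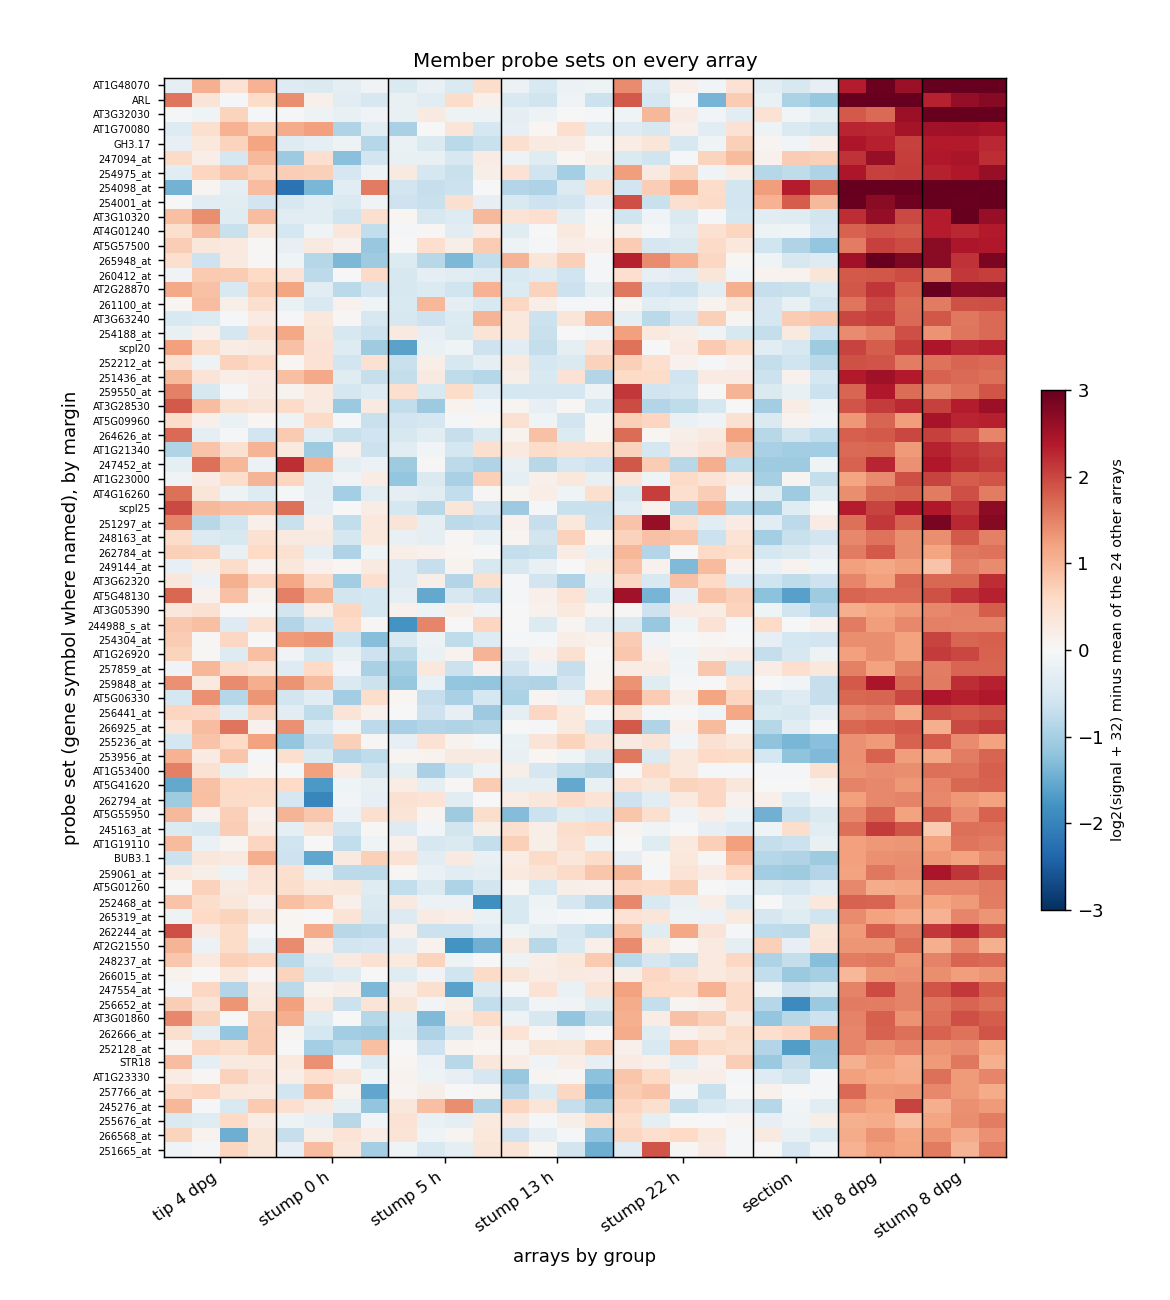
Each row is 1 of the 74 members, ordered by margin, and each column 1 of the 30 arrays, grouped by tissue and time. Colour gives log2(signal + 32) minus the mean of the 24 arrays outside 8 dpg, with values beyond -3 and 3 drawn in the end colours; the 6 columns on the right are red in every row, and array 1 of the stump at 22 h and of the tip at 4 dpg hold many of the darker cells elsewhere.

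The named members are described by role, starting with auxin and growth, for which there were 2. GH3.17 (AT1G28130), an acyl amidosynthetase that conjugates auxin to glutamate and so lowers free auxin, had signals of 1656, 1536.4 and 1261.3 in the tip and 1604.1, 1611 and 1464.4 in the stump at 8 dpg. It read 231.2, 356.8, 464.9 and 680.1 in the tip at 4 dpg, 208.3, 227.5, 248.1 and 142.4 in the stump at 0 h and 297.8, 265 and 315.7 in the section. Its signals were 242.6, 198.9, 145.8 and 166.8 at 5 h, 409.3, 346.1, 341.5 and 288.6 at 13 h, and 335.4, 371.7, 192.7, 255.6 and 483.6 at 22 h. GH3.17 was thus measured in every group, and all 6 arrays at 8 dpg lay above all others. The other 3 genes with a GH3 symbol and a named probe set, GH3.1, GH3.3 and GH3.9, were not members. Their mean signals in the tip at 8 dpg were 11.5, 5.67 and 29.2. GH3.3 was brighter elsewhere, with means of 43 in the stump at 0 h and 210.8, 145.7 and 144.8 at 5, 13 and 22 h. The highest group mean was 30.4 for GH3.1, in the stump at 5 h, and 62 for GH3.9, in the tip at 4 dpg. This comparison of GH3 symbols was drawn up after values had been seen.

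ARL (AT2G44080), or ARGOS-LIKE, promotes cell expansion and organ growth. At 8 dpg its signals were 986.5, 1205.6 and 1119.4 in the tip and 574.6, 735.4 and 784.5 in the stump. In the tip at 4 dpg they were 345.2, 128.7, 89.1 and 147.7, and at 0 h 291, 105.4, 66.9 and 56.4. The first array of each of these groups, both with a high median signal, gave the highest of the 4 values. Readings were 73.4, 67.6, 148.8 and 104.1 at 5 h, 57, 49.9, 81.7 and 47 at 13 h, and 410.6, 52.9, 90.5, 14.7 and 176.5 at 22 h. The section had the lowest group mean, with 75, 31.7 and 23.6.

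A pair of members belongs to the terpene synthase family, whose enzymes build volatile and defensive terpenes. AT1G70080 read 326.3, 325.2 and 389.1 in the tip and 389.7, 397.8 and 379.1 in the stump at 8 dpg, and from 5.8 to 143.1 with a median of 32.3 on the 24 other arrays. AT3G32030 was dim on the arrays outside 8 dpg, where it ran from 2.8 to 55.7 with a median of 9.05. In the tip at 8 dpg it gave 125.6, 110.3 and 226.5, and in the stump 412.6, 378.5 and 488.5, so the arrays of the 2 tissues did not overlap. Its probe set is of the kind that can match several transcripts, so related terpene synthases could add to its signal.

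**Figure D2:**
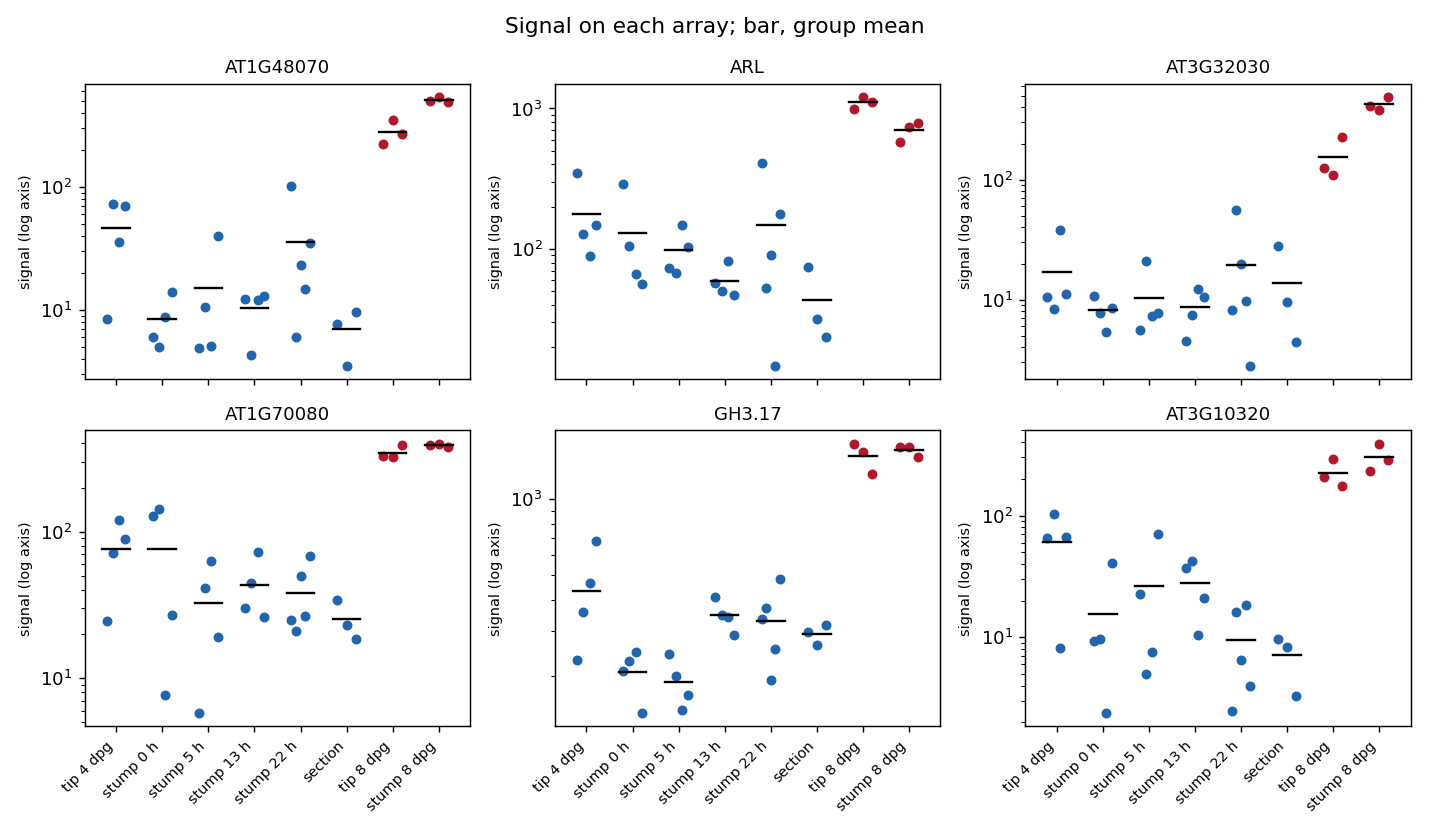
Signal (log axis) of the 6 named members with the largest margin on each of the 30 arrays, with a bar at each group mean; red points are the arrays at 8 dpg. For each of the 6 genes, all red points lie above all blue points, while the blue points of 1 group often spread over a factor of several.

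Members with products that act in the secretory pathway or at the cell wall were AT3G10320, AT4G16260, scpl20 and scpl25. AT3G10320, of glycosyltransferase family 61, whose members include enzymes that decorate wall polysaccharides, read 209.2, 291 and 173.3 in the tip and 232.8, 388 and 285.4 in the stump at 8 dpg. Elsewhere it ran from 2.4 to 103.5 (median 10.1), with 65.6, 103.5, 8.1 and 66.6 in the tip at 4 dpg. AT4G16260, of the beta-1,3-glucanase family, which cleaves callose and related glucans, read 207.2, 268.5 and 277.8 in the tip and 234.3, 313.6 and 229.2 in the stump at 8 dpg. It overlapped with the other arrays, since array 2 of the stump at 22 h stood at 348 and array 1 of the tip at 4 dpg at 251.7, against a median of 50.2.

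The serine carboxypeptidase-like proteins scpl20 (AT4G12910) and scpl25 (AT3G02110) belong to a large family of vacuolar and secreted hydrolases and acyltransferases. At 8 dpg scpl20 gave 510.5, 436.7 and 527.5 in the tip and 678.7, 604.6 and 628.6 in the stump, and 11.9 to 380.7 elsewhere (median 96). For scpl25 the values at 8 dpg were 356.8, 278.1 and 371.3 in the tip and 370.2, 298.8 and 456.3 in the stump, and those elsewhere 4 to 268.3 (median 37.2). Both were highest elsewhere on an array of high median signal. Of 29 genes with this family symbol and a named probe set, a count made after values had been seen, these 2 were members. Of all 13513 probe sets listed with 1 gene, 32 were members. At 8 dpg scpl48 and scpl28 had mean signals of 1927 and 261.2 in the tip and 2153 and 303.2 in the stump. Their means were 594.2 and 131.6 in the tip at 4 dpg and 97.5 and 26.8 in the stump at 0 h. They were not members because the tip at 4 dpg stood too far above the stump at 0 h. The 27 family genes that were not members had a median log2 difference of -0.13 between the tips at 8 and 4 dpg, against -0.10 over all probe sets, and of -0.29 between the stumps at 8 dpg and 0 h, against -0.17. Of these 27, by limma 2 were called higher in the stump at 8 dpg than at 0 h and 1 lower. Of all 22746 probe sets, 828 were called higher and 719 lower (6.8% in either direction). Higher were scpl48 by 4.33 ± 0.39 (limma, adjusted p = 1.45e-09) and scpl28 by 2.56 ± 0.45 (adjusted p = 0.00016). Lower was scpl40, by limma at -2.21 ± 0.38 (adjusted p = 0.00013), with mean signals of 11.1 against 190.8. Between the tips at 8 and 4 dpg only scpl48 was called, higher by 1.72 ± 0.39 (limma, adjusted p = 0.0296), against 0.444% of all probe sets.

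Among regulatory genes, AT1G21340 encodes a transcription factor of the Dof zinc finger family, AT5G48130 a protein of the NPH3 family, which is named after a component of phototropic signalling, and AT1G53400 a protein with a ubiquitin domain. AT1G21340 read 238, 242.1 and 169.8 in the tip, 380.1, 337.5 and 306.6 in the stump at 8 dpg and 10.2, 8.2 and 8.6 in the section. AT5G48130 was tight at 8 dpg, with 472.5, 462.2 and 455.3 in the tip and 538.3, 647.7 and 717.1 in the stump. Its 24 other arrays spread from 17 to 831.3, and array 1 of the stump at 22 h was the highest of all 30. AT1G53400 gave 1788.5, 1873.3 and 1853.6 in the tip and 2229.4, 2192.4 and 2437.3 in the stump at 8 dpg, with a median of 657.9 elsewhere and an overlap through array 1 of the tip at 4 dpg, at 2010.

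Metabolic and signalling members with a known family were AT3G63240, an inositol polyphosphate 5-phosphatase of the kind that turns over phosphoinositide signals, AT5G55950, a putative nucleotide-sugar transporter, and STR18 (AT5G66170), a sulfurtransferase. AT3G63240 read 222, 234.7 and 171.7 in the tip and 196.2, 158.3 and 171.5 in the stump at 8 dpg, and 3.9 to 96.6 elsewhere (median 29.3). AT5G55950 read 228.9, 289 and 190.4 in the tip and 298.8, 226.2 and 296.7 in the stump at 8 dpg, and 3.8 to 163.3 elsewhere (median 71.5). STR18 read 900.8, 1040.1 and 917.3 in the tip and 1050.7, 1315.6 and 902.1 in the stump at 8 dpg. The first 2 showed no overlap with the other 24 arrays, whereas STR18 overlapped through array 2 of the stump at 0 h, at 1120.3. BUB3.1 (AT3G19590), a protein of the mitotic spindle checkpoint singled out here after its values were seen, ran from 1038 to 1202 on the arrays at 8 dpg and from 125.7 to 949.8 on the others, with 224, 216.9 and 190.6 in the section.

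The named member with the largest margin was AT1G48070 (2.07). It read 222.9, 350.9 and 268.9 in the tip and 498.8, 537.4 and 491.4 in the stump at 8 dpg, and from 3.5 to 100.9 elsewhere, with a median of 11.3. The tip at 4 dpg, at 8.4, 72.3, 35.4 and 70.6, had the highest mean of the other groups. Further members named by their margin, for which no role is given here, were AT4G01240, AT5G57500, AT2G28870, AT3G28530, AT5G09960, AT1G23000, AT3G62320, AT3G05390, AT1G26920, AT5G06330 and AT5G41620. Their margins ran from 1.57 for AT4G01240 to 0.93 for AT5G41620. Of these 11, only AT3G28530 overlapped between the arrays at 8 dpg and the rest, through array 1 of the stump at 22 h at 267.4. The probe set of AT3G28530 is also of a kind that can match other transcripts. No 2 of the 32 genes were neighbours in the annotation, and none had a second probe set that carried its name.

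Which members differed between the tip and the stump at 8 dpg was tested, since the choice used both groups but not their difference. By limma on all 30 arrays, with adjustment over all probe sets, 0 of 74 members passed an adjusted p under 0.05 with a log2 difference of at least 1 in size, as did 0% of all probe sets. At an unadjusted p under 0.05 there were 6 of 74 members, a larger share than the 1.05% of all probe sets. This fit shares 1 spread over all groups, and arrays of the stump at 0 h and 22 h correlated less well than those at 8 dpg. With only the 8 dpg arrays in the fit 15 probe sets were called. The count of 0 therefore does not show that the tissues were alike. The sign was uneven: 56 members were lower in the tip than in the stump and 18 higher, with a median of -0.17, against 0.01 over all probe sets. The 3 arrays of the tip lay below the 3 of the stump, without overlap, in 24 members (32.4%), against 8% of all probe sets, and above them in 3 members (4.05%), against 8.99%. The 82 probe sets left out for their tip-to-stump difference at 4 dpg had a median of -0.31, with 37 of them (45.1%) below without overlap. They passed the same margin and signal conditions at 8 dpg as the members, so they are no independent check on the lean.

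AT3G32030, the terpene synthase family gene, differed most among the named members, by -1.34 ± 0.32 (log2, SE; n = 3 and 3; limma, adjusted p = 1). With only these 6 arrays in the fit its adjusted p was 0.0396, and 15 probe sets were called in all; with array weights it was 0.000472, at a log2 difference of -1.37 and 39 probe sets called. It was not called under the other alternatives tried, and the cause of the difference between the fits was not tested. AT5G09960 gave 1008.3, 1388 and 975.7 in the tip and 2326.1, 2039.6 and 2085.1 in the stump, a log2 difference of -0.93 ± 0.30. AT2G28870 gave 186.7, 237.2 and 179.4 against 467.8, 358.9 and 363.2, a log2 difference of -0.88 ± 0.54. Both had arrays that did not overlap, at an adjusted p of 1 by limma. AT1G48070 (-0.81 ± 0.38), AT1G26920 (-0.69 ± 0.33) and AT5G57500 (-0.67 ± 0.32) also had lower values in the tip, with adjusted p = 1 by limma. ARL was the named member with the largest positive difference, 0.64 ± 0.52, and its tip arrays all lay above its stump arrays. For GH3.17 the tissues overlapped (-0.08 ± 0.29).

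**Figure D3:**
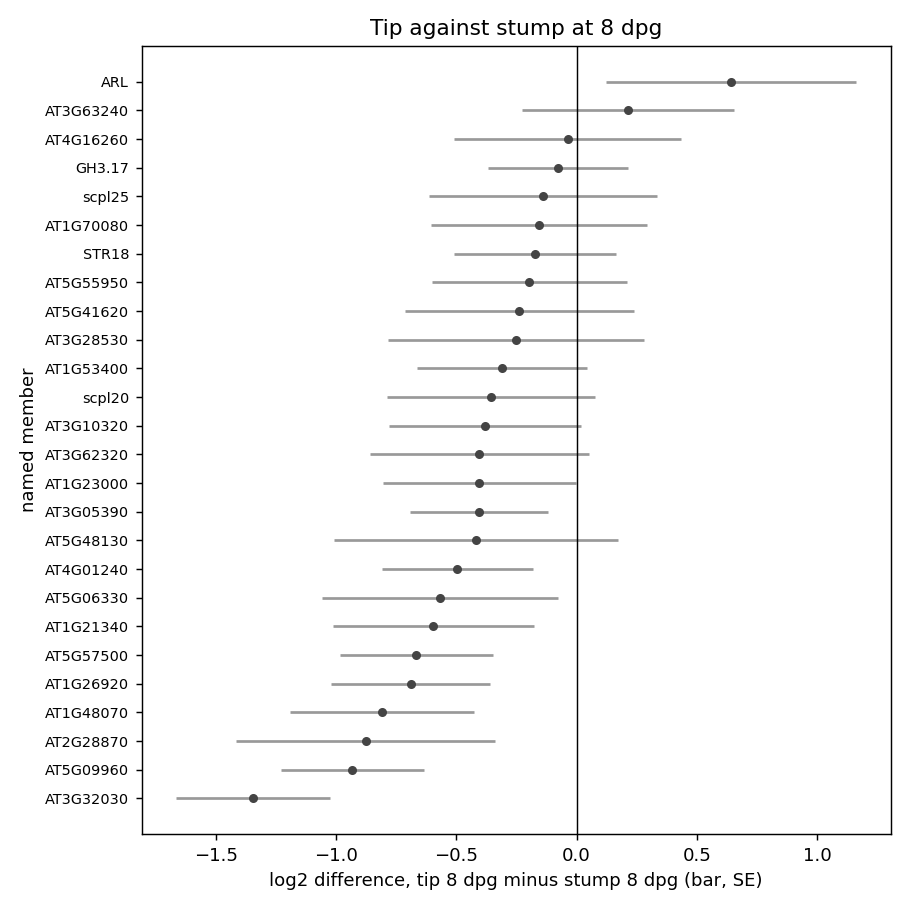
Log2 difference of the tip minus the stump at 8 dpg for the 26 members named by the rule (point) with its standard error from the fit on all 30 arrays (bar). Of the 26, 24 lie at or below 0, from AT3G32030 at -1.34, and ARL and AT3G63240 lie above it; none passed the test.

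Whether members moved while the stump regenerated was asked by comparing the stump at 5, 13 and 22 h with that at 0 h. These comparisons and that of the section share the 4 arrays at 0 h, and the choice of members was not free of these groups. It capped each of them relative to 8 dpg, and it used the stump at 0 h once more, as the group that the tip at 4 dpg could exceed by less than 1. At 5 h, 0 of 74 members were called by limma, against 2.63% of all probe sets. At an unadjusted p under 0.05 there were 10 of 74 members, a smaller share than the 19.2% of all. The median was -0.10, against -0.15 over all probe sets, with 33 members positive and 41 negative. At 13 h, 1 member (1.35%) was called, in the higher direction, as were 1.38% of all probe sets in that direction and 1.98% in either, and the median was -0.05 against -0.11. The transporter family gene AT5G55950 read 163.3, 137.2, 53.8 and 103.4 at 0 h and 6.9, 29.8, 43.5 and 38 at 13 h. These arrays did not overlap, and the log2 difference was -1.23 ± 0.35 with adjusted p = 0.0562 by limma, just above the threshold.

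By 22 h more members had a positive difference. Of 74 members 54 were above 0 h and 20 below (73% positive, against 44.2% of all probe sets), with a median of 0.36 against -0.05. Only 1 member (1.35%) was called, again higher, close to the 1.27% of all probe sets called higher and the 1.47% called in either direction, so the lean came from differences that mostly missed the test. The level of the members differed between arrays within these groups. Per array, the median over the members of the difference from the mean of the 24 arrays outside 8 dpg was 0.07 and 0.12 on arrays 1 and 2 of the stump at 0 h, those of high median signal, and -0.28 and -0.36 on its arrays 3 and 4. At 22 h it was 0.70 on array 1, also of high median signal, and -0.01 to 0.27 on the other 4. The part of these arrays in the lean was not tested beyond the calls: without the 4 arrays of high median signal 5 members were called at 22 h and 670 probe sets in all.

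The member called at both 13 h and 22 h was the unnamed probe set 265948_at, singled out after its values were seen. Its signals were 91.9, 43.2, 21.5 and 33.2 at 0 h, 69.7, 44.3, 21.6 and 48.6 at 5 h, and 242.4, 142.5, 189.8 and 101.2 at 13 h. At 22 h they were 655, 327.9, 245.1, 177.6 and 108.7, and at 8 dpg 741.2, 1113.7 and 909.9 in the tip and 858.9, 574.5 and 925.2 in the stump. Every array at 13 h and 22 h lay above every array at 0 h, and array 1 at 22 h reached into the range of the stump at 8 dpg. The log2 difference from 0 h was 1.36 ± 0.35 at 13 h (limma, adjusted p = 0.0318) and 1.94 ± 0.34 at 22 h (adjusted p = 0.000533). The call at 13 h was lost without array 2 or 3 at 0 h (adjusted p = 0.055 and 0.0656) and without array 1, 2 or 3 at 13 h (0.117, 0.0536 and 0.0891). With only the compared groups in the fit neither call held (0.232 and 0.114).

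Other members had positive differences at 22 h without passing the test. AT5G06330 read 17, 24.8, 3.1 and 70.9 at 0 h and 173.4, 89.2, 50.1, 132 and 80.3 at 22 h, which overlapped through 1 array, at 1.21 ± 0.40 (log2; limma, adjusted p = 0.148). AT4G16260 read 55.7, 42.5, 12.8 and 39.8 at 0 h and 33, 348, 96.4, 119.2 and 51.9 at 22 h. Its difference of 0.96 ± 0.39 had adjusted p = 0.283 by limma, and became 1.48 with adjusted p = 0.0368 without the 4 arrays of high median signal. Without array 2 at 22 h, the one at 348, it was 0.58 (adjusted p = 0.61), and 18 of 19 alternatives gave no call. In the other direction, scpl25 was at -0.60 ± 0.39 and AT1G70080 at -0.41 ± 0.37, neither of them called.

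**Figure D4:**
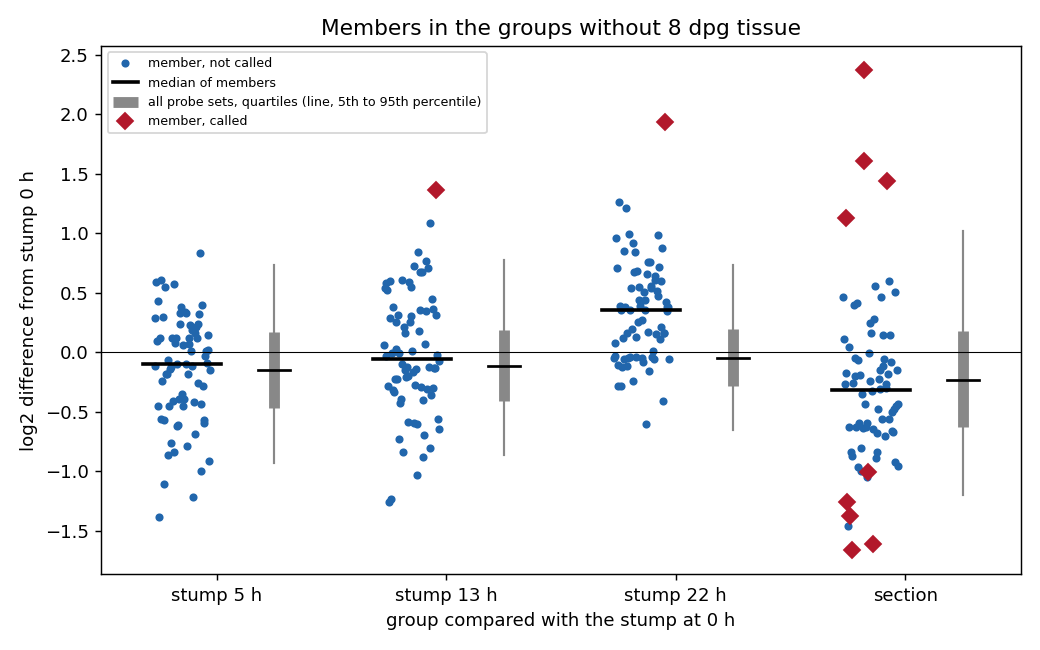
Log2 difference from the stump at 0 h of each of the 74 members (points; red diamonds passed the test) in the stump at 5, 13 and 22 h and in the section, with the members' median as a black line. The grey bar and line beside each give the quartiles and the 5th to 95th percentile of all probe sets; the members' median leaves the grey bar only at 22 h (0.36), and 9 members are marked in the section.

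The section, a control from further up the root, was compared with the stump at 0 h. Of 74 members 9 (12.2%) were called, near the 10.2% of all probe sets, 4 of them higher in the section (4.03% of all probe sets) and 5 lower (6.16% of all). The median was -0.32, against -0.23 over all probe sets, with 18 members positive and 56 negative. Lower in the section were the NPH3 family gene AT5G48130 (-1.66 ± 0.55, log2, SE; n = 3 and 4; limma, adjusted p = 0.0409), AT5G55950 (-1.38 ± 0.38; adjusted p = 0.0144) and STR18 (-1.26 ± 0.31; adjusted p = 0.00727).

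AT5G48130 read 32.8, 17 and 40.6 in the section and 396.3, 273.6, 71.4 and 72.7 at 0 h. STR18 read 176, 243.6 and 181 in the section and 520.2, 1120.3, 397.7 and 303.5 at 0 h. AT5G55950 read 3.8, 29.6 and 39.3 in the section, against 53.8 to 163.3 at 0 h. In all 3 genes the section lay below every array at 0 h, and arrays 1 and 2 at 0 h, of high median signal, gave the 2 highest values. Without the 4 arrays of high median signal none of the 3 was called: AT5G48130 was at -0.76 (adjusted p = 0.34), AT5G55950 at -0.998 (0.142) and STR18 at -0.72 (0.12, limma). AT5G48130 was also lost without array 1 or 2 at 0 h (adjusted p = 0.169 and 0.108) or any array of the section (0.0887 to 0.145). AT5G55950 was lost without array 1 at 0 h (0.0541) or array 1 of the section (0.106), and STR18 fell under the size threshold without array 2 at 0 h (-0.90). With median centring all 3 lost their calls (0.0897, 0.0562 and 0.0666).

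The other 6 called members are unnamed here, and 2 of them are given because their changes were the greatest in their direction, as seen after the values were known. Probe set 254098_at read 393.2, 871.9 and 563.7 in the section and 6.1, 36.6, 110.3 and 491.1 at 0 h, where it spread widely. It was higher in the section by 2.37 ± 0.55 (limma, adjusted p = 0.00419), and by 1.17 without the 4 arrays of high median signal (0.111). At 8 dpg it reached 2090.2, 1607.8 and 1976.9 in the tip and 3790, 2719.9 and 2913.1 in the stump. Probe set 256652_at was lower in the section, with a log2 difference of -1.61 (limma, adjusted p = 0.00372).

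The level of the members as a set was also followed array by array. The median difference from the mean of the 24 arrays outside 8 dpg was 1.54 to 1.73 on the tip arrays and 1.70 to 1.80 on the stump arrays at 8 dpg, which the choice of members fixes. Among the groups it did not set apart, the tip at 4 dpg ran from 0.31 to 0.49, the stump at 5 h from -0.34 to -0.09 and the section from -0.45 to -0.40. The arrays of the section had the 3 lowest median signals, and those at 8 dpg had median signals of 77.9 to 85.1, within the range of the other groups.

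**Figure D5:**
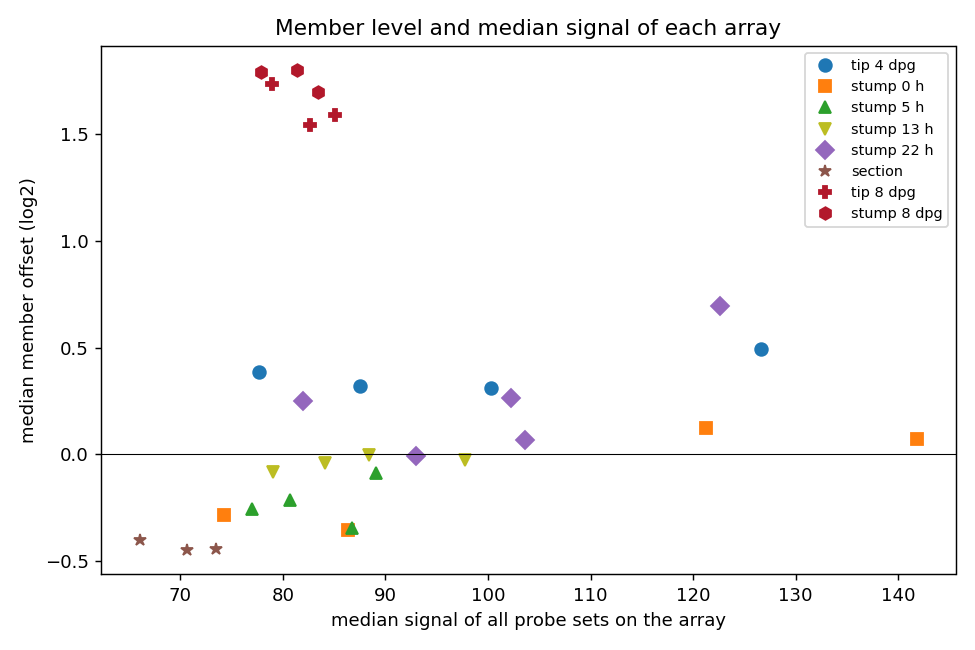
For each of the 30 arrays, the median over the 74 members of log2(signal + 32) minus the mean of the 24 arrays outside 8 dpg (vertical axis) against the array's median signal over all probe sets (horizontal axis). The 6 arrays at 8 dpg sit at 1.54 to 1.80 with median signals of 77.9 to 85.1, and array 1 of the stump at 22 h (0.70, at 122.6) is the highest of the others.

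Genes of pathways that respond to the age or nutrition of a seedling were set beside the members. The 10 lists, covering iron, phosphate, nitrogen and sulfur supply, energy starvation, abscisic acid, the clock, flavonoids, autophagy and the secondary wall, held 130 genes. Of these, 22 could be read through a named probe set. Members numbered 0 among them and only 74 among all 22746 probe sets, so nothing is read from that 0. Between the tips at 8 and 4 dpg 0 of the 23 probe sets of these list genes were called by limma, against 0.444% of all probe sets. Between the stumps at 8 dpg and 0 h 4 of the 23 were called higher and 1 lower. Of all 22746 probe sets, 828 were called higher and 719 lower (6.8% in either direction). The ATG8 genes encode the ubiquitin-like proteins that coat autophagosomes, and all 9 were measured. Of these, 3 were higher in the stump at 8 dpg than at 0 h: ATG8B by 2.17 ± 0.47 (log2; limma, adjusted p = 0.00212), ATG8E by 1.63 ± 0.49 (0.0322) and ATG8G by 1.00 ± 0.26 (0.0123). The same 3 had mean signals of 182.3, 105.3 and 315.3 in the tip at 4 dpg, against 78.45, 58.23 and 181.7 in the stump at 0 h. That gap in means between tip and stump at 4 dpg was not tested, nor was the part of age or position in these calls. The median of the 9 was 1.00 in the stump, against -0.17 over all probe sets, and 0.16 in the tip, against -0.10. In the stump at 22 h the median of the 9 was 0.50 above 0 h, against -0.05 over all probe sets, and ATG8E was called, at 1.73 ± 0.43 (adjusted p = 0.0252). The mean signals of ATG8E and ATG8H at 22 h, 347.5 and 662.1, were above those in the stump at 8 dpg, 237.4 and 471.2, so the ATG8 levels were not highest at 8 dpg in every case. BZIP53, a bZIP transcription factor of the low-energy response, was higher in the stump by 1.31 ± 0.35 (adjusted p = 0.0146), and AT1G04770, of the sulfur list, was lower, at -1.01 ± 0.28 (adjusted p = 0.0195). The other 17 named pathway genes passed in neither comparison, and with 22 of 130 genes named these lists are covered only in part.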

How the data were processed

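RNA from pooled Arabidopsis root tissue was measured on 30 Affymetrix ATH1 arrays in 8 groups, mapped from the sample labels. The authors deposited 1 linear MAS5 signal intensity per probe set and array, per the submitters' processing notes; no version of MAS5 is known here. Precision is limited by how few arrays a group holds. The scanner files carry no signals and were left aside, and 0 columns of the value table were unmapped.

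Signals were transformed as log2(signal + 32) with no further scaling, which understates differences of dim probe sets. The 22746 probe sets outside the array's controls were fitted with 1 coefficient per group (R 4.3.3; limma 3.58.1, eBayes with trend=TRUE after lmFit and contrasts.fit), so all groups share 1 spread. Calls needed an adjusted p (Benjamini-Hochberg) under 0.05 together with a log2 difference of 1 or more in size. The fit was tested on simulated data in which each probe set had the same spread in every group. Unequal spread between groups, as in these arrays, was not covered by that test. The 5 comparisons tested were differences the choice of members did not use, although it did use the group means. The members, the lists and the tests were chosen with earlier results of these data known.

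Genes came from a table of probe sets (13513 with 1 gene, 503 with several, 8730 unlisted), and all 32 member genes matched the RefSeq annotation by gene ID. Named were the 25 such members with the largest margin plus every such member called in a comparison, which made 26. Plots were drawn with matplotlib 3.10.9. Alternatives were pseudocounts of 1 and 64, median centring, quantile normalization, trend=FALSE, omission of the 40% dimmest probe sets, a replicate block, only the groups compared, array weights and each array left out in turn. Leaving out the 4 arrays with a median signal above 120 was chosen after seeing the data. Same-numbered arrays of compared groups correlated in their deviations from the group means at -0.127 to 0.194, with 1 exception. Array 1 of the stump at 22 h and array 1 at 0 h, both of high median signal, correlated at 0.628. The numbers were not taken as pairs, and the part of that shared deviation in the results at 22 h was not tested.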

Additional observations from a re-analysis of the deposited data

Results flagged for a closer look

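Among 130 groups of 4 or 5 arrays of the 26 named members, 8 held an array far from the rest by Dixon's criterion at 95%, which chance meets in about 1 group in 20. In the stump at 13 h, AT1G48070 read 4.3 on array 2 and 12.1 to 13 on the others, and AT5G41620 read 11.5 on array 3 and 70.8 to 76.3 on the others. In the tip at 4 dpg, AT5G41620 read 12 on array 1 against 157.5 to 201.4, scpl25 read 268.3 on array 1 against 109.1 to 117.9, and AT3G32030 read 38.3 on array 3 against 8.3 to 11.1. In the stump at 5 h, AT3G32030 read 21 on array 2 against 5.6 to 7.7. On array 4 of the stump at 5 h, AT2G28870 read 92.7 against 8 to 13.2 and AT3G63240 read 96.6 against 9.1 to 15.8. None of these groups was at 8 dpg, whose groups of 3 arrays were too small for this criterion.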

How the results depend on the processing

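The rule gave 76 members with a pseudocount of 1 (56 shared with the 74), 73 with 64 (56 shared), 73 with quantile normalization (68), 111 with median centring (71), 64 without the 40% dimmest probe sets (64), 64 without the 4 arrays of high median signal (46) and 65 to 84 with 1 array left out.

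Counts of members called in the tip against the stump at 8 dpg were 1 with only the groups compared and 1 with array weights; the counts over all probe sets were 1 with a pseudocount of 64, 15 with only the groups compared and 39 with array weights. At 5 h against 0 h, 2 members were called with a pseudocount of 1, and over all probe sets 139 with only the groups compared and 295 with array weights. At 13 h, 0 members were called with a pseudocount of 64 or only the groups compared, and 2 with median centring, without the dimmest probe sets, with array weights, with trend=FALSE and when the arrays of high median signal were left out; over all probe sets 166 were called with only the groups compared and 279 with array weights. At 22 h, the members called were 2 without the dimmest probe sets, 0 with only the groups compared and 5 without the arrays of high median signal, and the probe sets in all 77 with only the groups compared, 206 with array weights and 670 when the arrays of high median signal were left out. In the section, 15 members were called with a pseudocount of 1, 5 with quantile normalization, 5 with median centring and 2 with only the groups compared, with 569 probe sets in all in that last fit.

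With 1 array left out, members called ran from 0 to 0 between tip and stump at 8 dpg, 0 to 2 at 5 h, 0 to 2 at 13 h, 1 to 4 at 22 h and 5 to 14 in the section, and all probe sets called from 0 to 0, 344 to 1078, 328 to 842, 213 to 549 and 1217 to 3478. With the replicate block the members called were 0, 0, 1, 1 and 9 and the probe sets 0, 703, 517, 343 and 2584. Over the named or called members, 165 results had 2879 alternative values, of which 52 lost a call, 9 gained one and 0 reversed a called direction. The 8 dpg groups hold 3 arrays each, and 36 members had a mean signal under 150 in every group outside 8 dpg.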
